A study of Mus musculus with 24 samples.

Results

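The 10 genes described here encode surface receptors with which macrophages bind lipids, dead cells, microbes and bacterial peptides. They were chosen by name and function, as scavenger receptors (Msr1, Marco, Cd36, Scarb1, Olr1), C-type lectin receptors (Clec4d, Clec4e, Clec7a) and formyl peptide receptors (Fpr1, Fpr2). The rule itself uses no measured value. They make up 10 of the 22165 genes in the count table, and all 10 passed the filter on low counts that left 11878 genes for testing. Marco, Olr1 and Fpr1 were near 0 in unstimulated cells and passed that filter through the LPS groups, so their passing is no evidence of a difference. The data are 24 bulk RNA-seq libraries of bone marrow-derived macrophages (BMDMs), made with a method that primes cDNA from the poly(A) tail and counts reads at the 3′ end of transcripts. Marrow came from mice aged 8 to 20 weeks, either WT C57BL/6N or Irg1-/- on the same background, and was grown for 7 days with 20 ng/ml M-CSF. Irg1, listed as Acod1 in the table, encodes the enzyme that makes itaconate, a metabolite that LPS-treated macrophages accumulate. For each genotype there were 4 groups of 3 independent cultures, which gave 8 groups in all. Unstim. cells received no LPS. LPS 3h cells (non-tolerized) are labelled Mock/3h_LPS. By the authors' protocol they had a mock period of 24 h without LPS, a change of medium, 1 h of rest and then LPS for 3 h. LPS 24h cells were collected straight after 24 h in LPS. LPS 24h->LPS 3h cells (tolerized) had 24 h of LPS, a change of medium, 1 h of rest and LPS again for 3 h. The dose was 100 ng/ml throughout. Irg1 was absent from every cell of the Irg1-/- cultures from the start of culture, not removed at the time of LPS, the WT mice are not stated to be littermates, and the labels do not say how many animals gave the 3 cultures of a group.

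Scavenger receptors take up modified lipoproteins, apoptotic cells and bacteria. Msr1 (SR-A) and Marco are trimeric class A receptors, Cd36 and Scarb1 (SR-BI) are class B receptors that also move fatty acids and cholesterol across the membrane, and Olr1 (LOX-1) binds oxidized LDL through a C-type lectin-like domain. Clec7a (Dectin-1) binds fungal beta-glucan and signals through its own cytoplasmic tail, while Clec4e (Mincle) and Clec4d (MCL) bind mycobacterial and fungal glycolipids and signal through the Fc receptor gamma chain (Fcer1g), and all of these routes run through the kinase Syk and the Card9-Bcl10-Malt1 complex. Fpr1 and Fpr2 are G protein-coupled receptors for N-formyl peptides released by bacteria and damaged mitochondria, and are best known from neutrophils and monocytes.

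Several facts of the libraries bear on the values that follow. Reads counted on genes ranged from 3927378 to 20430359 per library. Acod1 did not exceed 26.4 CPM (reads per 1000000 reads on genes, normalized between libraries) in any Irg1-/- library and was at least 3793 CPM in each WT library that had received LPS, so the genotype labels hold in the LPS groups, while in Unstim. cells both genotypes had 5.82 to 11.9 CPM and the gene checks nothing. All 8 genes of a macrophage marker list were detected in every group, with a summed level of 5069 to 10612 CPM. Of 6 dendritic cell markers 4 had more than 3 reads in at least 1 library, led by Siglech (up to 8.10 CPM) and Ccr7 (up to 2.68 CPM). Cd209a was at 0 in every library, and the sum of the 6 did not exceed 9.99 CPM. T and B cell markers summed to at most 1.76 CPM and mast cell markers to at most 2.25 CPM. Fibroblast markers and neutrophil markers, the latter led by S100a9 and S100a8, were detected and are given by group with Clec7a and Fpr2. In bulk RNA, fewer cells of a type and less RNA per cell cannot be told apart. WT LPS 24h replicate 3 stood apart from the other 2 libraries of its group. Across genes its log2 CPM correlated with theirs at 0.9143 and 0.9326, against 0.9588 between the other 2. At Olr1, Clec7a, Scarb1 and Clec4e its value lay outside theirs by a wide margin, so results resting on it are given with and without it. WT LPS 24h->LPS 3h replicate 3 also correlated less with its group, at 0.9391 and 0.9326 against 0.9579 between the other 2. Irg1-/- Unstim. replicate 3 held most of the reads of Olr1, Fpr1 and Marco found in its group, and results resting on it are also given both ways. It was the deepest library of its group, with 14766807 reads on genes against 4707752 and 3927378. Fits without it rest on these shallower libraries. The sample labels also carry a prefix, MB 1 to 4, whose meaning they do not state. All Unstim. libraries carry prefix 4, and the Irg1-/- LPS libraries carry other prefixes, so in Irg1-/- cells LPS and prefix cannot be told apart within prefixes. In WT, replicate 3 of each LPS group carries prefix 4 too. It is the only library of its group with that prefix, so replicate and prefix cannot be told apart there. Prefix 3 holds only Irg1-/- LPS 3h replicates 2 and 3. With the prefix as a term, the level of Irg1-/- LPS 3h therefore rests on its replicate 1 alone.

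The receptor genes fall into 3 pairs of close neighbours and single loci. On mouse chromosome 6 (build GRCm38, GENCODE M21), Clec4d (chr6:123262111-123275265, plus strand) and Clec4e (chr6:123281789-123289870, minus strand) lie 6523 bases apart, and Clec7a (chr6:129461591-129472779, minus strand) and Olr1 (chr6:129485244-129507165, minus strand) lie 12464 bases apart. Fpr1 (chr17:17876471-17883940, minus strand) and Fpr2 (chr17:17887824-17893952, plus strand) lie 3883 bases apart, and Fpr2 overlaps Fpr3 on the same strand. The table's reads for Fpr3 did not exceed 10 in any library, so Fpr2 took nearly all reads assigned at this locus, but reads shared within this family are uncertain. Msr1 (chr8:39581685-39642673), Marco (chr1:120474538-120505024), Cd36 (chr5:17781690-17888801) and Scarb1 (chr5:125277087-125341094) are on minus strands. GENCODE M21 lists Clec7a as a polymorphic pseudogene and the other 9 genes as protein-coding. RefSeq promoter windows of 250 bases before and 50 after a start site (GRCm38.p6) were found for 8 of the 10 genes, without Msr1 and Scarb1. The 5 windows below belong to the genes that LPS moved the most. Olr1 and Clec4e were higher after each 3 h of LPS. Marco, Fpr1 and Fpr2 in WT were higher after 24 h than after 3 h. The windows are printed 5′ to 3′ along the strand of the gene, with matches to a searched motif in capitals. The Olr1 window is chr6:129507116-129507415 (minus strand), the Clec4e window chr6:123289822-123290121 (minus strand), the Marco window chr1:120504975-120505274 (minus strand), the Fpr1 window chr17:17883890-17884189 (minus strand) and the Fpr2 window chr17:17887574-17887873 (plus strand).
Olr1: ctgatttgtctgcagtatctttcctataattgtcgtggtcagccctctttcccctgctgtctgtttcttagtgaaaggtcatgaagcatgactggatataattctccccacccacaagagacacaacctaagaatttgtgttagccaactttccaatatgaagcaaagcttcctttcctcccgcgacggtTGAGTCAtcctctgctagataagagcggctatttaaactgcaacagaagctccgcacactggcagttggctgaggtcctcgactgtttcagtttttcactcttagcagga
Clec4e: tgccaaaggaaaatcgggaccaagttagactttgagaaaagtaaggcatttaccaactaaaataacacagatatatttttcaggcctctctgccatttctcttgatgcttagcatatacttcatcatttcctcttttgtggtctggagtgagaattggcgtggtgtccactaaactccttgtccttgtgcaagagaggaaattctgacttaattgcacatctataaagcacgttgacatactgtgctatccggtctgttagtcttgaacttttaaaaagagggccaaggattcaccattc
Marco: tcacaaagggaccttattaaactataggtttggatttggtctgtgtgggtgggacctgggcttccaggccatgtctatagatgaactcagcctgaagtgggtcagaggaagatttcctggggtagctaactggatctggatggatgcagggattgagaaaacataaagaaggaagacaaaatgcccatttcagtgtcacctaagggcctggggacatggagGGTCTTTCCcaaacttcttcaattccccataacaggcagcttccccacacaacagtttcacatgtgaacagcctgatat
Fpr1: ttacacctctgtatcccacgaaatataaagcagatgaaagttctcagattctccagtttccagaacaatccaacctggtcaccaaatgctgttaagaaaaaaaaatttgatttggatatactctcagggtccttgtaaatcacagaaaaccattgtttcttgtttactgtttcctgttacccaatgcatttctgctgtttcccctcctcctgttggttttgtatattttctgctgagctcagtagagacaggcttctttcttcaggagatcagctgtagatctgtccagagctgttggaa
Fpr2: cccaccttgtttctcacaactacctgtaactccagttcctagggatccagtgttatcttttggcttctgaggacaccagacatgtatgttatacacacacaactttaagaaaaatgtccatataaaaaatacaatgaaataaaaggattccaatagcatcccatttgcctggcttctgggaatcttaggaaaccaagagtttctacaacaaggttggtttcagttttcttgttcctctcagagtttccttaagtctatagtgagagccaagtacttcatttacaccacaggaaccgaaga

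Both strands of the windows of these 8 genes were searched for 6 motifs, written here with N for any base. Olr1 held the AP-1 motif TGANTCA as the letters TGAGTCA at positions -60 to -54 counted from its start site, and 7.81% of 32851 RefSeq promoter windows of that length held such a match. Marco held the kappaB motif GGNNNTTCC as the letters GGTCTTTCC at positions -29 to -21, a motif found in 18.5% of windows. Clec4d held the ISRE motif TTCNNTTTC as the letters TTCCTTTTC at positions 1 to 9, a motif found in 8.56% of windows. No window held a C/EBP (TTNNGCAAT, 2.18% of windows), PU.1 (AGGAAGT, 9.35%) or PPAR DR1 (AGGNCAAAG, 2.04%) match, and the windows of Cd36, Clec4e, Clec7a, Fpr1 and Fpr2 held none of the 6. These matches describe letters in short windows and no binding was measured.

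After LPS 3h most of these receptor genes rose. LPS 3h cells also had the mock period, change of medium and rest, which Unstim. cells are not stated to have had. Their part and that of LPS cannot be told apart. In WT cells 7 of 10 rose (Msr1, Marco, Olr1, Clec4d, Clec4e, Fpr1, Fpr2), Scarb1 fell and Cd36 and Clec7a did not pass the test, where 32.0% of all genes tested passed. The median log2 fold change of the 10 genes was 3.60, beside -0.18 over all genes. The counts and medians of this paragraph include Marco, Olr1 and Fpr1, which passed the filter on low counts through the LPS groups. Irg1-/- cells showed the same 7 rising and Scarb1 falling, where 35.9% of all genes passed, with a median of 3.27 beside -0.20. After LPS 24h, 5 of 10 were higher than in Unstim. cells in WT (Msr1, Marco, Clec4e, Fpr1, Fpr2) and 3 lower (Cd36, Scarb1, Clec7a), against 16.2% of all genes, with a median of 2.18 beside 0.00. The same 5 were higher in Irg1-/- cells and Cd36 and Clec7a were lower, against 13.7%, with a median of 1.57 beside -0.00. Every adjusted p here comes from edgeR's quasi-likelihood model of the counts and is adjusted over all 11878 genes, and both time points share their Unstim. libraries. In WT, where replicate 3 of the LPS groups shares its prefix with the Unstim. libraries, all 8 called genes kept their direction within that prefix at each time.

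**Figure D1:**
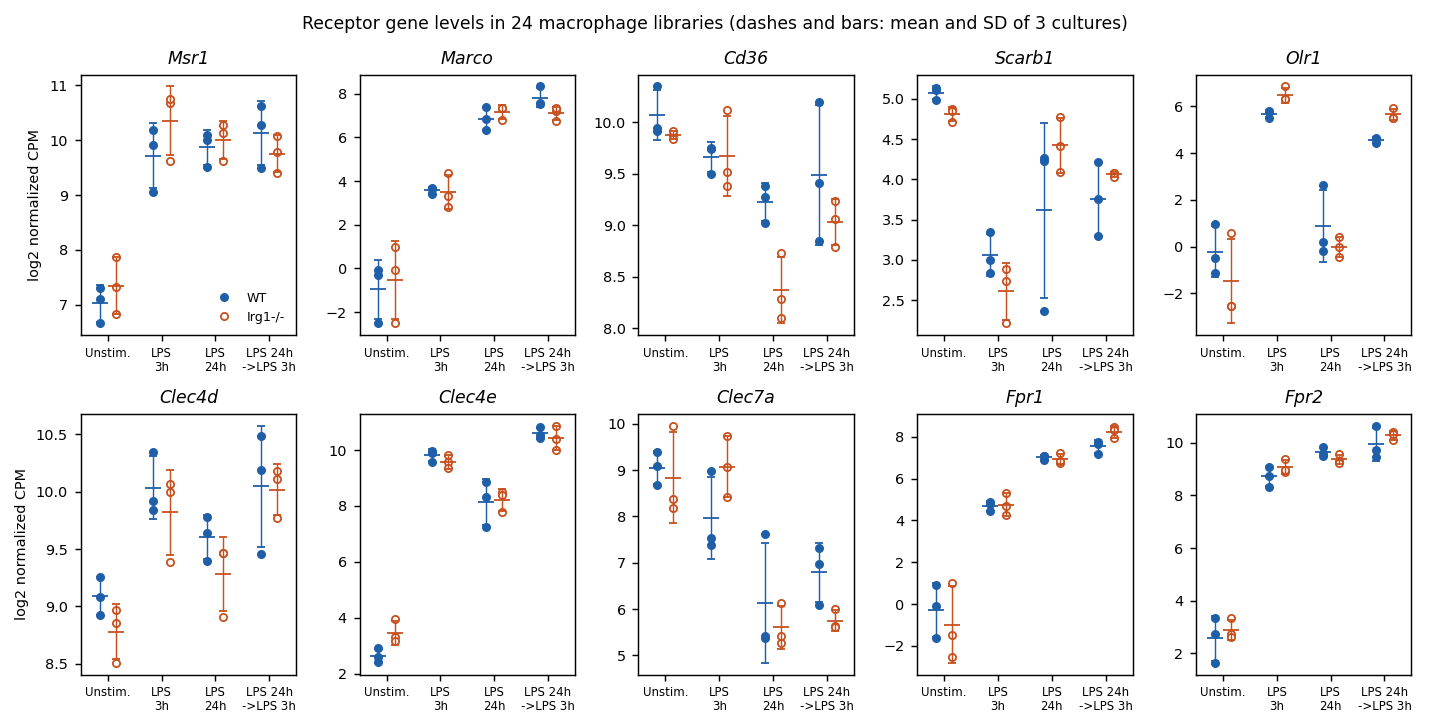
Level of each receptor gene as log2 normalized CPM (with a prior count of 2) in the 24 libraries, by treatment on the horizontal axis, with WT cultures as filled and Irg1-/- cultures as open points. Dashes and bars give the mean and SD of 3 cultures, and each panel has its own vertical range. Olr1 rises with each 3 h of LPS and is low at 24 h, Marco, Fpr1 and Fpr2 are lowest in Unstim. cells and far higher after 24 h of LPS, and Clec7a and Cd36 are lower after 24 h of LPS than in Unstim. cells.

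Marco, the class A receptor that alveolar and marginal zone macrophages use to bind bacteria, was nearly silent without LPS and highest in the groups with 24 h of LPS. Its level in the 3 WT cultures was 0.644, 0.00 and 0.780 CPM in Unstim., 12.6, 12.4 and 10.5 after LPS 3h, 168, 116 and 79.5 after LPS 24h and 187, 192 and 323 after LPS 24h->LPS 3h. The Irg1-/- cultures had 0.780, 0.00 and 1.82 CPM, then 9.88, 20.3 and 6.86, then 162, 164 and 113, and 147, 165 and 108 in the same order of groups. In both genotypes every culture with 24 h of LPS was above every LPS 3h culture, and every LPS 3h culture was above every Unstim. culture. In WT, Marco rose 22.0-fold by 3 h (log2 4.46, SE 0.58, adjusted p = 2.54e-07) and 226-fold by 24 h (7.82, SE 0.63, adjusted p = 3.94e-11). The Irg1-/- rise was 11.3-fold and 134-fold in the same order. These folds rest on 0 to 34 reads per Unstim. library, and without Irg1-/- Unstim. replicate 3 the log2 change in Irg1-/- cells was 4.88 at 3 h against 3.50 with it, and 8.42 at 24 h against 7.07.

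Msr1, the founding macrophage scavenger receptor, was higher in the 3 LPS groups than in Unstim. cells. WT cultures had 101 to 159 CPM in Unstim., 529 to 1156 after LPS 3h, 727 to 1089 after LPS 24h and 717 to 1582 after LPS 24h->LPS 3h. Irg1-/- cultures had 114 to 234, 794 to 1739, 786 to 1246 and 677 to 1083 CPM. The 3 LPS groups overlapped each other in both genotypes, and none overlapped Unstim. The rise in WT was 6.67-fold at 3 h (log2 2.74, SE 0.37, adjusted p = 5.57e-07) and 7.16-fold at 24 h (2.84, SE 0.37, adjusted p = 7.34e-07).

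Scarb1 fell at 3 h in both genotypes, while its class B relative Cd36 passed no test at that time. Scarb1, which takes up cholesterol esters from HDL, had 31.3, 34.4 and 34.8 CPM in the WT Unstim. cultures, 10.0, 6.99 and 7.81 after LPS 3h, 19.0, 18.6 and 4.96 after LPS 24h and 18.4, 13.3 and 9.69 after LPS 24h->LPS 3h. Irg1-/- cultures had 29.0, 28.6 and 26.0, then 7.21, 4.44 and 6.51, then 21.0, 27.2 and 16.8, and 16.8, 16.7 and 16.2 CPM. Every LPS 3h culture lay below every Unstim. culture. The later WT cultures were below Unstim. too. Among them LPS 24h->LPS 3h replicate 3 (9.69 CPM) lay within the LPS 3h range and LPS 24h replicate 3 (4.96 CPM) below it. Irg1-/- LPS 24h overlapped Unstim. at its upper end. At 3 h Scarb1 was 4.06-fold lower in WT (log2 -2.02, SE 0.38, adjusted p = 8.95e-05) and 4.58-fold lower in Irg1-/- cells (adjusted p = 3.60e-05). At 24 h it was 2.36-fold lower in WT (-1.24, adjusted p = 0.0165), a call lost without WT LPS 24h replicate 3 (-0.89, adjusted p = 0.0711) and when the 2 compared groups alone were fitted (adjusted p = 0.0599). With the prefix as a term the WT fall was larger (-1.96, adjusted p = 0.00111). The change in Irg1-/- cells at 24 h was -0.36 (SE 0.36, adjusted p = 0.593), and -1.32 with the prefix as a term (adjusted p = 0.0638).

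Cd36, the fatty acid translocase that also takes up oxidized LDL, was below Unstim. at 24 h. WT cultures had 1301, 970 and 987 CPM in Unstim., 855, 859 and 725 after LPS 3h, 517, 615 and 664 after LPS 24h and 460, 680 and 1176 after LPS 24h->LPS 3h. Irg1-/- cultures had 942, 968 and 919, then 736, 667 and 1115, then 425, 311 and 273, and 533, 606 and 443 CPM. The LPS 24h cultures were below the Unstim. cultures in both genotypes, and WT LPS 24h->LPS 3h spread over a range that reached the Unstim. values through replicate 3. At 24 h the log2 change was -1.49 in Irg1-/- cells (SE 0.30, adjusted p = 5.31e-04) and -0.86 in WT (SE 0.30, adjusted p = 0.0438). The WT call was lost in 5 of the 6 fits that leave out 1 culture (adjusted p up to 0.178), without the filter (0.0636), with only the compared groups (0.0504) and with the label prefix as a term (0.232), and the Irg1-/- call was lost with the prefix term (-1.02, adjusted p = 0.106).

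Olr1 was high where LPS had been added 3 h before and low elsewhere. The 3 WT cultures had 1.80, 0.286 and 0.536 CPM in Unstim., 45.5, 55.9 and 54.2 after LPS 3h, 0.974, 0.715 and 6.02 after LPS 24h and 21.3, 24.8 and 24.2 after LPS 24h->LPS 3h. The Irg1-/- cultures had 0.00, 0.00 and 1.34, then 116, 79.2 and 78.4, then 0.811, 0.561 and 1.15, and 61.6, 45.7 and 45.7 CPM. In both genotypes the groups that had just received LPS for 3 h lay above the other 2 groups with no overlap. Olr1 was 57.2-fold higher after LPS 3h than in Unstim. in WT (log2 5.84, SE 0.68, adjusted p = 2.88e-08) and 134-fold higher in Irg1-/- cells (7.07, SE 0.73, adjusted p = 3.25e-09). Without Irg1-/- Unstim. replicate 3 the other 2 Unstim. libraries held 0 reads, and the rise at 3 h was then at least 176-fold against a floor of 3 reads per library. Without WT Unstim. replicate 1 the WT rise was 6.89. At 24 h the log2 difference from Unstim. was 1.52 in WT (adjusted p = 0.113), where it depended on WT LPS 24h replicate 3 (-0.16 without it) and passed without WT Unstim. replicate 1 (2.54, adjusted p = 0.0292), without WT LPS 24h replicate 2 (1.98, adjusted p = 0.0397) and without the filter (adjusted p = 0.00701), and 0.36 in Irg1-/- cells (adjusted p = 0.820).

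Clec4e was the lectin receptor with the widest range. WT cultures had 5.92, 7.35 and 5.17 CPM in Unstim., 960, 754 and 989 after LPS 3h, 467, 317 and 152 after LPS 24h and 1809, 1494 and 1377 after LPS 24h->LPS 3h. Irg1-/- cultures had 9.67, 15.3 and 8.78, then 917, 760 and 650, then 366, 337 and 220, and 1364, 1872 and 1020 CPM. In both genotypes the 4 groups kept the order Unstim., LPS 24h, LPS 3h, LPS 24h->LPS 3h with no overlap between any neighbours. The rise at 3 h was 147-fold in WT (log2 7.20, SE 0.43, adjusted p = 1.38e-14) and 69.7-fold in Irg1-/- cells (6.12, SE 0.41, adjusted p = 2.59e-13). After LPS 24h Clec4e was 50.9-fold above Unstim. in WT and 27.6-fold in Irg1-/- cells.

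Its neighbour Clec4d, which pairs with Mincle at the cell surface, was already abundant in Unstim. cells. Unstim. cultures had 487 to 612 CPM in WT and 364 to 500 in Irg1-/- cells, and LPS 3h cultures had 918 to 1309 and 670 to 1073. After LPS 24h the levels were 677 to 881 in WT and 482 to 710 in Irg1-/- cells. After LPS 24h->LPS 3h they were 706 to 1434 and 872 to 1164. Clec4d rose 1.95-fold at 3 h in WT (log2 0.96, SE 0.28, adjusted p = 0.00911) and 2.08-fold in Irg1-/- cells (adjusted p = 0.00414). The WT call was lost without WT LPS 3h replicate 1 (0.79, adjusted p = 0.0553) and with the label prefix as a term (0.63, adjusted p = 0.101). With that term the Irg1-/- value was 0.77, which rests on Irg1-/- LPS 3h replicate 1 alone. At 24 h the change was 0.52 in each genotype (adjusted p = 0.233 in WT and 0.260 in Irg1-/-).

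Clec7a was lower after 24 h of LPS. WT cultures had 541, 675 and 411 CPM in Unstim., 166, 184 and 510 after LPS 3h, 42.3, 41.1 and 197 after LPS 24h and 160, 68.1 and 125 after LPS 24h->LPS 3h. Irg1-/- cultures had 290, 332 and 998, then 532, 856 and 342, then 42.9, 70.2 and 38.1, and 49.3, 64.4 and 49.0 CPM. Replicate 3 was the high culture of WT LPS 3h, WT LPS 24h and Irg1-/- Unstim., and all of these carry label prefix 4, as do all Unstim. libraries. At 24 h Clec7a was 5.79-fold lower in WT (log2 -2.53, SE 0.54, adjusted p = 8.42e-04) and 10.7-fold lower in Irg1-/- cells (-3.42, SE 0.56, adjusted p = 3.20e-05). Without WT LPS 24h replicate 3 the WT value was -3.76, without Irg1-/- Unstim. replicate 3 the Irg1-/- value was -2.61, and with the prefix as a term the Irg1-/- value was -2.21. Within prefix 4 the WT value was -1.43. At 3 h the change in WT was -0.92 (adjusted p = 0.178) and passed the test without WT LPS 3h replicate 3 (-1.63, adjusted p = 0.0328) and without the filter (adjusted p = 0.0225). With the prefix as a term it was -0.17 (adjusted p = 0.836), and within prefix 4 it was -0.06. In Irg1-/- cells the change at 3 h was 0.09 (adjusted p = 0.909). With the prefix as a term it was 1.57, which rests on Irg1-/- LPS 3h replicate 1 alone. Fibroblast markers, 5 genes led by Col1a2, also had lower sums in the groups with 24 h of LPS, at 263 to 346 CPM in WT Unstim., 313 to 421 after LPS 3h, 182 to 246 after LPS 24h and 135 to 175 in tolerized cells. The Irg1-/- sums were 271 to 342, 292 to 434, 166 to 192 and 103 to 159 CPM, and the part of such cells, or of the neutrophils described with Fpr2, in the lower Clec7a and Cd36 was not tested.

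Both formyl peptide receptors rose at 3 h, and their highest group means were those of LPS 24h->LPS 3h. Fpr1 had 1.67, 0.763 and 0.146 CPM in the WT Unstim. cultures, 29.0, 27.4 and 21.3 after LPS 3h, 135, 117 and 135 after LPS 24h and 200, 217 and 147 after LPS 24h->LPS 3h. Irg1-/- cultures had 0.00, 0.188 and 1.87, then 39.8, 25.9 and 18.8, then 107, 114 and 150, and 243, 356 and 321 CPM. The 4 groups did not overlap in either genotype, in the order in which they are given. Fpr1 rose 30.5-fold at 3 h (log2 4.93, SE 0.57, adjusted p = 2.89e-08) and 152-fold at 24 h (7.25, SE 0.61, adjusted p = 1.09e-10) in WT. The folds in Irg1-/- cells were 29.5 at 3 h and 129 at 24 h. Without WT Unstim. replicate 1 the WT values became 6.05 and 8.31, without WT Unstim. replicate 3 the WT value at 24 h became 6.65, and without Irg1-/- Unstim. replicate 3 the Irg1-/- values became 8.23 and 10.34 against 4.88 and 7.01, where the Unstim. libraries left held at most 1 read.

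Fpr2, which also binds non-formylated host peptides, was already present at a low level and rose 67.1-fold at 3 h (log2 6.07, SE 0.42, adjusted p = 5.18e-13) and 125-fold at 24 h (6.96, SE 0.44, adjusted p = 2.45e-13) in WT. Its WT cultures had 6.57, 9.93 and 2.97 CPM in Unstim., 431, 321 and 539 after LPS 3h, 756, 724 and 918 after LPS 24h and 1592, 702 and 829 after LPS 24h->LPS 3h. The Irg1-/- cultures had 9.98, 6.41 and 5.94, then 658, 478 and 497, then 631, 762 and 596, and 1084, 1356 and 1282 CPM, and rose 73.6-fold at 3 h and 89.7-fold at 24 h. The 2 latest WT groups overlapped, and so did Irg1-/- LPS 3h and LPS 24h, while every LPS culture was far above Unstim. Neutrophil marker sums overlapped between Unstim. and LPS 3h, where Fpr1 and Fpr2 rose, and were lower in the groups with 24 h of LPS. The 10 markers summed to 552 to 735 CPM in WT Unstim. and 564 to 673 after LPS 3h, and to 76.4 to 232 after LPS 24h and 70.8 to 148 after LPS 24h->LPS 3h, and in Irg1-/- cells to 445 to 685, 419 to 604, 145 to 217 and 65.5 to 104 in the same order. Of the 10 markers, 8 had more than 3 reads in at least 1 LPS 24h library of each genotype. In LPS 24h->LPS 3h these were 6 in WT and 8 in Irg1-/- cells. At 0 were Mpo in WT LPS 24h, and Ly6g and Mpo in both LPS 24h->LPS 3h groups, with Retnlg too in WT. The part of neutrophils in the levels of Fpr1 and Fpr2 was not tested.

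**Figure D2:**
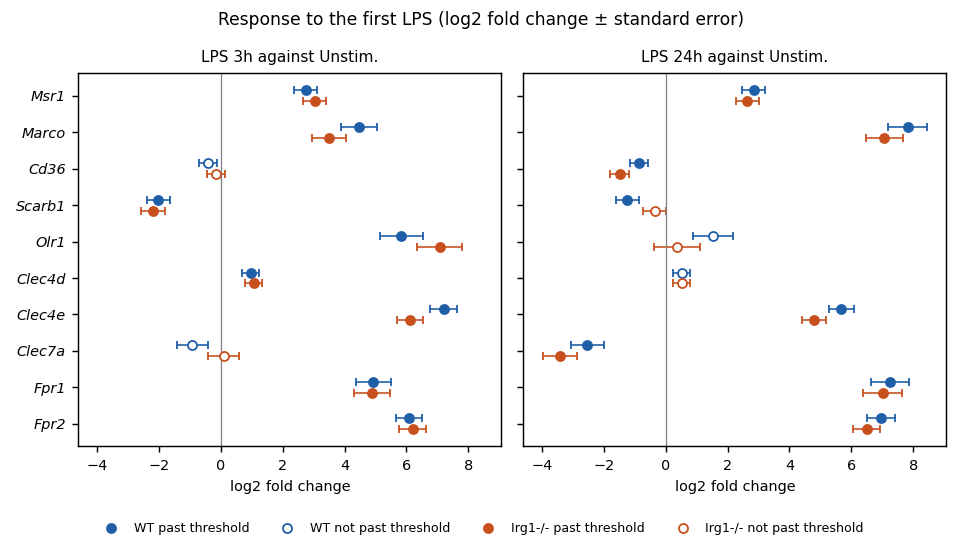
Log2 fold change of each receptor gene after LPS 3h (left) and LPS 24h (right) against Unstim., with the standard error as a bar, in WT (blue) and Irg1-/- (orange). Filled points passed the threshold of 0.05 for the adjusted p, and the largest change is that of Marco at 24 h in WT, 7.82.

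LPS 24h cells were then compared with LPS 3h cells. These groups also differ in the mock period, change of medium and rest. Their part and that of time in LPS cannot be told apart. In WT, LPS 24h was above LPS 3h for Marco (log2 3.36, SE 0.49, adjusted p = 3.34e-06), Fpr1 (2.32, SE 0.47, adjusted p = 3.21e-04) and Fpr2 (0.89, adjusted p = 0.0412), and below it for Olr1 (-4.32, SE 0.62, adjusted p = 2.63e-06), Clec4e (-1.53, SE 0.33, adjusted p = 6.48e-04) and Clec7a (-1.61, adjusted p = 0.0178), so that 6 of 10 passed where 32.3% of all genes did. In Irg1-/- cells Marco (3.57), Fpr1 (2.13) and Scarb1 (1.83) were higher and Olr1 (-6.71), Clec7a (-3.52), Clec4e (-1.34) and Cd36 (-1.32) lower, 7 of 10 where 35.0% of all genes passed. Olr1 in WT was at -6.05 without WT LPS 24h replicate 3. The WT call of Fpr2 was lost in 5 of the 6 fits without 1 culture (adjusted p up to 0.165) and with DESeq2's size factors (0.0709). The WT call of Clec7a was lost without WT LPS 3h replicate 3 (-0.90, adjusted p = 0.219), without WT LPS 24h replicate 1 (0.0951) or replicate 2 (0.102) and with only the compared groups (0.0516), while without WT LPS 24h replicate 3 Clec7a was further down at -2.88 (adjusted p = 1.89e-04). Scarb1 in WT was at 0.78 (adjusted p = 0.109) and passed without that culture (1.09, adjusted p = 0.0125), and Clec4d in Irg1-/- cells passed with DESeq2's Wald test (-0.65, adjusted p = 0.0337). The WT directions held in all 18 values of called genes within prefixes 1, 2 and 4, and in Irg1-/- cells no prefix holds both groups. With the prefix as a term the Irg1-/- differences were smaller, at 1.46 for Fpr1, 1.39 for Scarb1 and -0.95 for Cd36. These values rest on Irg1-/- LPS 3h replicate 1 alone.

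Restimulation compares LPS 24h->LPS 3h cells with LPS 24h cells, which were collected without the change of medium and the rest. No group is stated to have had these without LPS afterwards. Their part and that of the second LPS dose cannot be told apart. Olr1 and Clec4e rose again in both genotypes and no other receptor gene passed the test, 2 of 10 in each, where 4.00% of all genes passed in WT and 5.14% in Irg1-/- cells. Olr1 rose 9.01-fold in WT (log2 3.17, SE 0.60, adjusted p = 0.00120) and 58.6-fold in Irg1-/- cells (5.87, SE 0.67, adjusted p = 3.46e-07), and the WT value was 4.85 without WT LPS 24h replicate 3. Clec4e rose in WT (log2 2.32, SE 0.34, adjusted p = 4.79e-05) and 4.62-fold in Irg1-/- cells (2.21, SE 0.34, adjusted p = 4.44e-05). All 6 WT values and both Irg1-/- values of these genes within a prefix had the same direction. Fpr1 in Irg1-/- cells was higher in every restimulated culture at 1.31 (SE 0.45, adjusted p = 0.0974) and passed with DESeq2's Wald test (adjusted p = 0.0371), without the filter (0.00365) and with only the compared groups (0.00518). Fpr2 in Irg1-/- cells was at 0.90 (adjusted p = 0.138) and passed with only the compared groups (0.0211). The median of the 10 genes was 0.43 in WT and 0.69 in Irg1-/- cells, beside -0.03 and -0.07 over all genes.

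**Figure D3:**
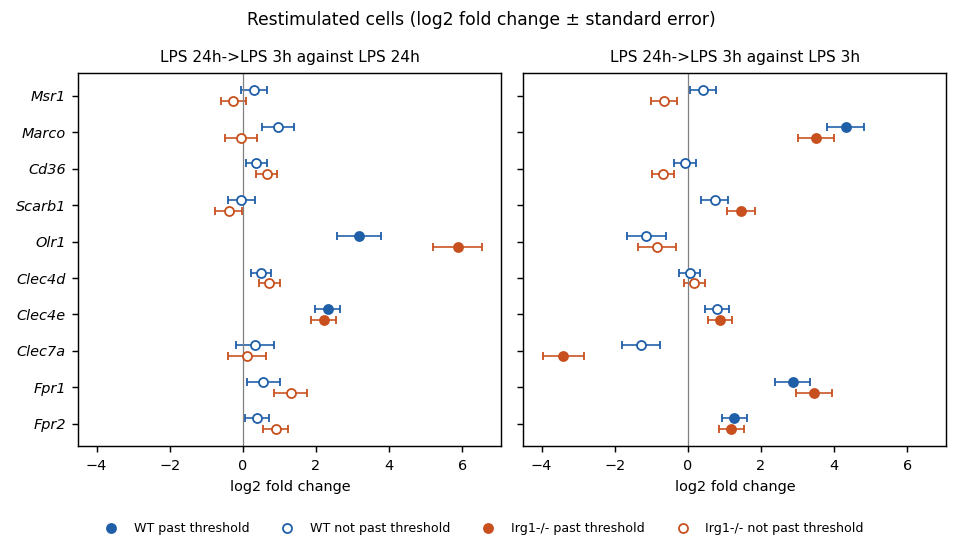
Log2 fold change of each receptor gene in LPS 24h->LPS 3h cells against LPS 24h (left) and against LPS 3h (right), with standard errors, in WT (blue) and Irg1-/- (orange). Olr1 and Clec4e are the filled points on the left, and Marco, Fpr1 and Fpr2 are filled in both genotypes on the right. Both panels use the same LPS 24h->LPS 3h libraries.

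Set against cells that met LPS for 3 h without an earlier dose, tolerized cells had more Marco, Fpr1 and Fpr2. In WT the log2 differences were 4.31 for Marco (SE 0.51, adjusted p = 1.88e-07), 2.86 for Fpr1 (SE 0.48, adjusted p = 4.01e-05) and 1.27 for Fpr2 (SE 0.34, adjusted p = 0.00569), and these 3 of 10 passed where 25.5% of all genes did. In Irg1-/- cells 6 of 10 passed, where 27.2% of all genes did, with Marco (3.50), Fpr1 (3.44), Scarb1 (1.45), Fpr2 (1.19) and Clec4e (0.87) higher and Clec7a 10.6-fold lower (-3.41, SE 0.56, adjusted p = 2.51e-05). Olr1 reached 23.5 ± 1.88 CPM (SD, n = 3) in tolerized WT cells against 51.9 ± 5.55 in LPS 3h cells, with no overlap (-1.14, SE 0.53, adjusted p = 0.114), and it passed without the filter (0.0127) and with only the compared groups (0.0171). Clec4e had 1560 CPM on average in tolerized WT cells and 901 in LPS 3h cells (0.79, SE 0.33, adjusted p = 0.0726), and passed with the replicate block (0.76, adjusted p = 0.0445). Clec7a in WT was at -1.28 (adjusted p = 0.0669), and passed without the filter (0.00125), with only the compared groups (0.0485) and without WT LPS 3h replicate 1 (-1.56, 0.0427), and was at -0.57 without WT LPS 3h replicate 3. In Irg1-/- cells Olr1 was at -0.84 (adjusted p = 0.239) and passed with only the compared groups (0.0278), and Cd36 was at -0.67 (adjusted p = 0.0890) and passed with DESeq2's size factors (-0.79, 0.0498) and Wald test (0.0266). The WT call of Fpr2 was lost without WT LPS 24h->LPS 3h replicate 1 (0.83, adjusted p = 0.0840). The Irg1-/- call of Clec4e was lost with DESeq2's Wald test (0.0568) and in 5 of the 6 fits without 1 culture (up to 0.226). With the prefix as a term the Irg1-/- differences were smaller, at 0.43 for Clec4e, 0.58 for Fpr2 and 1.07 for Scarb1. These values rest on Irg1-/- LPS 3h replicate 1 alone. Called genes kept their direction in all 9 WT values and all 6 Irg1-/- values within a prefix.

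Compared with Unstim., tolerized WT cells had 7 receptor genes higher and 2 lower (Scarb1, -1.28, and Clec7a, -2.20), where 20.9% of all genes passed, and Cd36 at -0.49 did not pass (adjusted p = 0.256), except without WT LPS 24h->LPS 3h replicate 3 (-0.93, adjusted p = 0.0267). The largest WT rise was that of Marco, 435-fold (log2 8.77, SE 0.65), followed by Clec4e (255-fold) and Fpr1 (222-fold). In Irg1-/- cells 7 were higher and Cd36 and Clec7a lower, where 22.8% of all genes passed, with Fpr1 320-fold, Fpr2 168-fold and Marco 128-fold higher. Scarb1 in Irg1-/- cells was at -0.75 (adjusted p = 0.139) and passed with the prefix as a term (-1.64, adjusted p = 0.00920), with which WT Scarb1 was at -1.89. The Irg1-/- call of Cd36 (-0.84, adjusted p = 0.0381) was lost in all 6 fits without 1 culture. The WT call of Scarb1 was lost without WT LPS 24h->LPS 3h replicate 3 (-1.08, adjusted p = 0.0644), that of Clec4d without replicate 2 of that group (0.78, adjusted p = 0.0745), that of Clec7a with the prefix as a term (-1.22, adjusted p = 0.126), and those of Clec4d in both genotypes with the prefix as a term (0.64, adjusted p = 0.145 in WT and 0.75, 0.125 in Irg1-/-). Without Irg1-/- Unstim. replicate 3 the log2 changes in Irg1-/- cells were 8.37 for Marco against 7.00, 11.66 for Fpr1 against 8.32 and -2.49 for Clec7a against -3.32, and Olr1 was at least 98.7-fold higher on the floor of 3 reads. Without WT Unstim. replicate 1 the WT changes were 5.73 for Olr1 against 4.69 and 8.89 for Fpr1 against 7.79. The prefix as a term also moved called values of Olr1 against Unstim. (WT 6.45 at LPS 3h and 5.31 in tolerized cells, Irg1-/- 8.14 and 7.11), of Fpr2 at LPS 3h (6.89) and Msr1 at LPS 24h (3.34) in Irg1-/- cells, and of Clec7a in tolerized Irg1-/- cells (-1.98).

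Irg1-/- and WT cells were then compared within each treatment. No receptor gene passed edgeR's test in any of the 4 treatments, where of all genes 0.0421% passed in Unstim., 0.00842% at LPS 3h, 0.598% at LPS 24h and 0.118% in restimulated cells. DESeq2's Wald test also called 0 of 10 in each, and at an unadjusted p under 0.05 there were 1, 0, 2 and 2 receptor genes. A p that misses the threshold does not show that the genotypes act alike, and the standard errors of these differences were 0.28 to 0.74 on the log2 scale. In LPS 24h->LPS 3h cells the ranges of the genotypes did not overlap for 4 of 10 genes, where 12.9% of all genes tested had ranges without overlap. Irg1-/- cultures were above WT cultures for Olr1 (45.7 to 61.6 against 21.3 to 24.8 CPM, log2 1.12, SE 0.53, adjusted p = 0.618) and Fpr1 (243 to 356 against 147 to 217 CPM, 0.71, SE 0.45, adjusted p = 0.768). They were below for Marco (108 to 165 against 187 to 323 CPM, -0.74, SE 0.44, adjusted p = 0.748) and Clec7a (49.0 to 64.4 against 68.1 to 160 CPM, -1.12, SE 0.52, adjusted p = 0.591). After LPS 3h the ranges parted for Olr1 alone among the 10 (78.4 to 116 in Irg1-/- against 45.5 to 55.9 CPM in WT, 0.81, SE 0.53, adjusted p = 0.963), where 9.08% of all genes did. After LPS 24h they parted for Cd36 alone (273 to 425 against 517 to 664 CPM, -0.83, SE 0.30, adjusted p = 0.256), where 16.5% did. In Unstim. they parted for Clec4e (8.78 to 15.3 in Irg1-/- against 5.17 to 7.35 CPM in WT, 0.86, SE 0.35, adjusted p = 0.760), Cd36 and Scarb1, both lower in Irg1-/- cells by 0.20 and 0.26 on the log2 scale, where 9.42% did. Within prefix 1, which holds the 3 Irg1-/- LPS 24h cultures and 1 WT culture, the Cd36 difference was -0.65. In LPS 24h->LPS 3h cells the differences within prefix 1 and prefix 2 were 1.09 and 1.30 for Olr1, 0.75 and 0.17 for Fpr1, -0.49 and -0.38 for Marco, and -1.51 and -0.47 for Clec7a. Without the filter Olr1 passed after LPS 24h (-1.57, adjusted p = 0.0284).

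**Figure D4:**
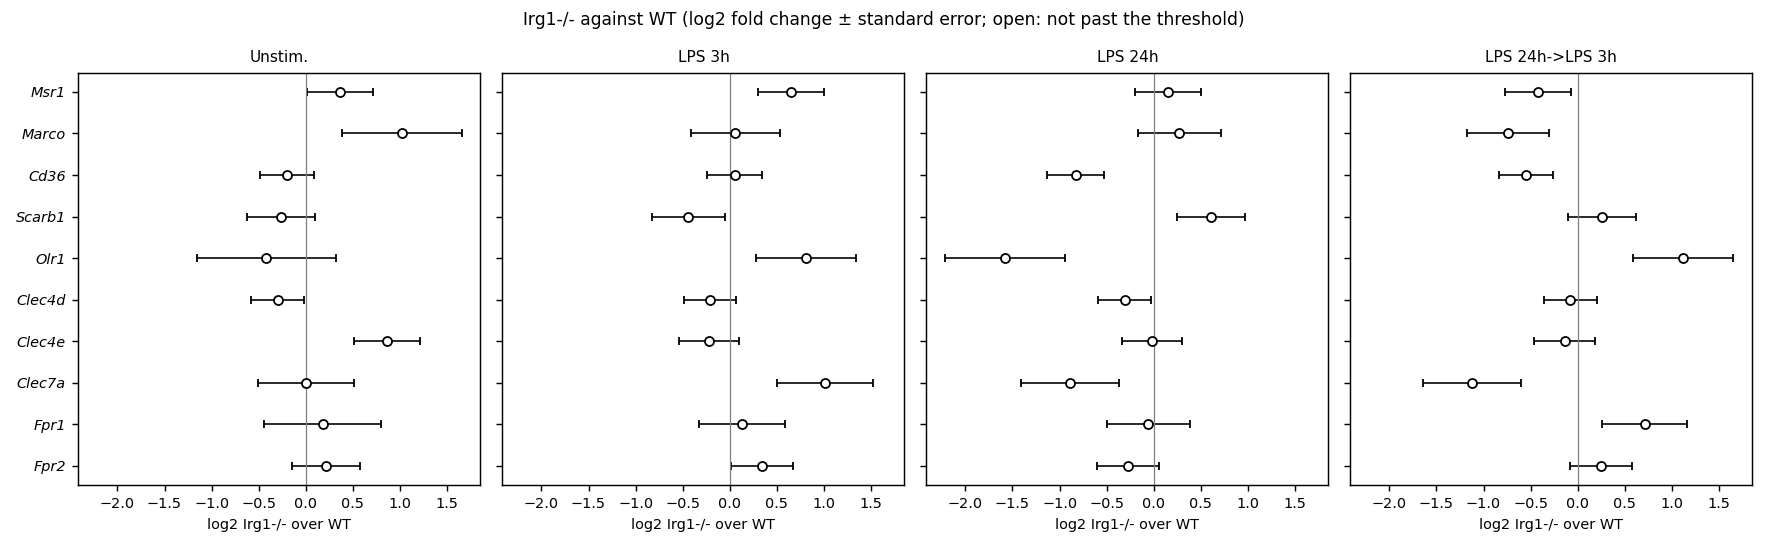
Log2 fold change of each receptor gene between Irg1-/- and WT cells in the 4 treatments, with standard errors. All 40 points are open, that is, none passed the threshold of 0.05, and the farthest from 0 is Olr1 after LPS 24h at -1.58, which rests on WT LPS 24h replicate 3 (0.09 without it).

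Whether the genotype changed a response was tested as a difference of differences. No receptor gene passed for the response to LPS 3h or LPS 24h, to restimulation, or for tolerized against non-tolerized cells, where 0.00842%, 0.210%, 0.00842% and 0 (0%) of all genes passed, and DESeq2's Wald test called 0 of 10 in each. Unadjusted p-values under 0.05 were found for 1, 0, 1 and 2 receptor genes. The rise of Olr1 on restimulation was larger in Irg1-/- cells by 2.70 (SE 0.83, adjusted p = 0.265). That value depended on WT LPS 24h replicate 3, without which it was 1.05 (adjusted p = 0.931), and it passed the test in the fit without the filter (2.69, adjusted p = 8.41e-04). The difference of Clec7a between tolerized and LPS 3h cells was lower in Irg1-/- cells by -2.13 (SE 0.73, adjusted p = 0.465), from -1.73 to -2.84 over the fits without 1 culture, and it also passed without the filter (adjusted p = 0.00289). For Clec4e the rise at 3 h differed by -1.08 (SE 0.48, adjusted p = 0.831), in a comparison where Irg1-/- Unstim. cultures had 11.2 CPM on average and WT had 6.15. For Msr1 tolerized against LPS 3h cells differed by -1.07 (SE 0.49, adjusted p = 0.656).

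The surroundings of these receptors were followed in 64 related genes, of which 54 were tested. At 3 h in WT, 12 were higher and 14 lower where 32.0% of all genes passed, and at 24 h 10 were higher and 14 lower where 16.2% passed, with medians of -0.38 and -0.07. Irg1-/- cells had 11 higher and 10 lower at 3 h where 35.9% passed, and 11 and 16 at 24 h where 13.7% passed. Of 12 other scavenger receptors tested, Cxcl16 (log2 1.91) and Scarf1 (1.44) rose at 3 h in WT and Stab1 (-2.16) and Lrp1 (-0.87) fell. At 24 h Cxcl16 was also higher (1.54) and Stab1 (-1.40) and Colec12 (-1.95) were lower. Stab2, a clearance receptor for hyaluronan, had at most 1 read per library at 24 h, at least 7.79-fold lower than its 2.39 CPM in Unstim. Of 17 other C-type lectin receptors, Clec5a (3.27), which signals through Dap12, and Clec2d (2.40) rose at 3 h in WT and Clec4a2 (-1.21), a lectin with an inhibitory motif, fell. Mrc1, the mannose receptor, was 13.3-fold lower at 24 h (-3.73, SE 0.43, adjusted p = 5.84e-08). Clec4b1 and Clec1a had 0 reads in the WT LPS 24h libraries, at least 11.1-fold and 4.18-fold lower than in Unstim. Stab2, Clec4b1 and Clec1a count among the 14 lower genes at 24 h in WT. They passed the filter through other groups, so their passing is no evidence of a fall. The 5 other formyl peptide receptor genes did not pass the filter.

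In the signalling list below the lectin receptors, 4 of 10 genes rose at 3 h in WT and 1 fell, and 4 rose at 24 h, beside the same 32.0% and 16.2% of all genes. Malt1, the protease of the Card9 complex, rose 37.4-fold at 3 h (log2 5.22, SE 0.40, adjusted p = 5.89e-12) and was at 2.42-fold at 24 h, Syk rose by 1.34 and 1.69, Prkcd by 1.07 at 3 h, and Fcer1g, the adaptor of Clec4e, by 1.28 at 24 h (adjusted p = 0.0208). Inpp5d, the phosphatase SHIP1, fell at 3 h (-2.27). Of 6 ligands and regulators of formyl peptide receptors, Saa3, a serum amyloid A protein, rose by 6.64 at 3 h and 11.14 at 24 h in WT, from 13.3 to 30010 CPM. Anxa1 (annexin A1), whose fragments bind these receptors, was higher at 3 h (0.95) and lower at 24 h (-1.88), Camp (cathelicidin) was lower at 24 h (-4.13), and the arrestins Arrb1 (-2.87) and Arrb2 (-1.31) fell at 3 h. Of 9 lipid handling genes tested, 5 were lower and 1 higher at each time in WT, beside the same shares. Pparg, a nuclear receptor known to drive Cd36, fell by 2.67 at 3 h and 4.08 at 24 h, Lpl by 2.83 at 24 h and Apoe by 1.79 at 24 h. Nr1h3 (LXR alpha) was lower at 3 h (-1.02) and higher at 24 h (1.74).

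On restimulation of WT cells 3 of the 54 related genes passed, where 4.00% of all genes did, Malt1 (2.49) and Ly75 (2.04) higher and Abcg1 (-1.69) lower, and in Irg1-/- cells 7 passed, where 5.14% did, among them Malt1 (3.48), Bcl10 (1.30) and Prkcd (1.39) higher. Ly75 and the Irg1-/- examples were picked after their values were seen. Between genotypes 2 of the 54 passed, both after LPS 24h, where 0.598% of all genes did, and both lower in Irg1-/- cells. Prkcd, a kinase between Syk and Card9, had 313 CPM in Irg1-/- and 694 in WT cells (log2 -1.15, SE 0.26, adjusted p = 0.0314), and Abcg1, a cholesterol exporter, had 124 and 303 (-1.29, SE 0.27, adjusted p = 0.0212). Neither call held without WT LPS 24h replicate 3 (-0.78, adjusted p = 0.364, and -0.95, adjusted p = 0.232), without any of the 3 Irg1-/- LPS 24h cultures, with only the compared groups (0.302 and 0.241) or with the prefix as a term (0.130 in both).

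Over the 24 libraries, which share the 8 treatments, the genes whose log2 CPM followed each receptor gene most closely were found by Pearson correlation as a description. Only genes whose symbol opens with a capital letter and then a small letter or digit were searched. Olr1 was followed by Phlda1 (0.96) and Malt1 (0.949), Clec4e by Sod2 (0.973) and Acsl1 (0.967), and Clec4d by Ube2z (0.921). Marco was followed by Saa3 and Glrx (0.966 each), Fpr1 by Cd38 (0.967) and Il23r (0.963), and Fpr2 by U90926 (0.979) and Ccl5 (0.975). Msr1 was followed by Ifi44 and Slfn1 (0.945 each), both interferon-inducible genes, Scarb1 by Dhrs3 (0.954), Clec7a by Reps2 (0.901) and Lpl (0.897), and Cd36 by Cpeb1 (0.832) and Cadm1 (0.826). Neighbours on the chromosome did not appear among the 3 closest genes of each other.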

How the data were processed

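RNA-seq was performed on 24 BMDM libraries in 8 groups of 3 independent cultures. The authors primed cDNA with barcoded oligo-dT, pooled it, amplified it by PCR and aligned reads to mm10 with STAR (the submitters' processing notes name the same build and aligner), and deposited whole-number read counts per gene, without normalization. The counting program, annotation and strand setting are not given in the sources used here, and no molecular identifiers were described, so PCR copies are counted and floors cover counting error only. Rows that name no gene made up 40.6% to 52.0% of a column's total and were left out.

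Gene counts per library (3927378 to 20430359, median 11539055.5) were scaled with TMM factors, filtered with edgeR's filterByExpr, and modelled over all 8 groups by edgeR quasi-likelihood (glmQLFit, then glmQLFTest). P-values were adjusted by Benjamini-Hochberg over 11878 genes and called under 0.05. CPM are gene counts scaled to 1000000 with these factors, and log2 CPM used a prior count of 2. Levels were not compared between genes. Replicates of a group always differed by more than sampling noise (chi-square per degree of freedom at least 27.83), and none were treated as duplicates. As PCR copies are counted, this cannot exclude repeat libraries of the same RNA. That the cultures were independent rests on the authors' statement. Samples were grouped by their labels. The receptor genes were chosen by name and function, and they, the related lists, markers, motifs and tests were all chosen with earlier results of these data known. The text names all 10 receptor genes, Acod1, up to 4 genes of each related list with the largest change past the threshold in WT LPS 3h or LPS 24h against Unstim., and related genes that passed between genotypes. It also gives 1 or 2 of the 3 genes most correlated with each receptor gene, among genes whose symbol met the limit given above. Alternatives were DESeq2's size factors and Wald test, no filter, a filter at a mean of 10 counts, a fit of the compared groups alone, a replicate block, the label prefix as a term, and each culture left out. The procedure was tested on simulated data. The software was edgeR 4.0.16 with limma 3.58.1, and DESeq2 1.42.0, all in R 4.3.3. Tables and figures used pandas 2.3.3, numpy 2.4.6 and matplotlib 3.10.9 under Python 3.11.15.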

Additional observations from a re-analysis of the deposited data

How the results depend on the processing

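Across the receptor genes, 75 results passed the test. In other fits of these, 501 values stayed past the threshold and 24 did not, and in fits without 1 culture 421 stayed and 29 did not. No called value turned its direction. At least 1 fit without a culture lost 10 of the 75, and at least 1 other fit lost 17. Values that turned direction were all of results that did not pass. With the label prefix as a term these were 0.06 for Scarb1 in WT restimulation, 0.38 for Msr1 and -0.02 for Clec4d in Irg1-/- LPS 24h->LPS 3h against LPS 3h, 0.78 for Msr1 and -0.48 for Fpr2 in Irg1-/- LPS 24h against LPS 3h, -0.11 for Msr1, -0.22 for Marco, -0.13 for Cd36 and 0.02 for Clec4e between genotypes after LPS 3h, and -0.01 for Scarb1 between genotypes after LPS 24h->LPS 3h. Clec4d in WT LPS 24h->LPS 3h against LPS 3h was -0.04 with DESeq2's size factors and with its Wald test and -0.02 with the filter at a mean of 10 counts. Between genotypes in Unstim., Clec7a was 0.03 with DESeq2's size factors, 0.02 with its Wald test and with only the compared groups, and 0.00 under the filter at a mean of 10 counts, and Fpr1 was -0.17 with only the compared groups, as Clec4e was 0.02 after LPS 24h. Values with the prefix term that involve Irg1-/- LPS 3h rest on replicate 1 of that group alone. The cause of the turned directions was not tested.

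Same-numbered cultures were not paired by the data: in 0 of 28 pairs of groups was every correlation of deviations over 0.1, and the range was -0.109 to 0.337. With the replicate block Clec4e in WT LPS 24h->LPS 3h against LPS 3h passed (0.76, adjusted p = 0.0445), and between genotypes after LPS 24h it was 0.02.

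Counts of called genes moved as follows. Related genes in WT restimulation numbered 3, against 6 with the Wald test, 5 without the filter and 2 to 5 without 1 culture. In Irg1-/- restimulation they numbered 7, against 4 to 5 without 1 culture, and receptor genes numbered 2, against 4 with only the compared groups. For tolerized against LPS 3h cells, WT receptor genes numbered 3, against 5 without the filter and 5 with only the compared groups, and with the prefix term the Irg1-/- counts were 3 receptor genes, against 6, and 15 related genes, against 26. Irg1-/- receptor genes in LPS 24h against LPS 3h numbered 4 with the prefix term, against 7. Between genotypes, related genes numbered 1 in Unstim. with the Wald test and without the filter, against 0, and 2 with the Wald test and 1 without the filter after LPS 24h->LPS 3h, against 0. After LPS 24h they numbered 0 with only the compared groups, 0 with the prefix term and 0 to 2 without 1 culture, against 2, and receptor genes numbered 1 without the filter, against 0. Without the filter 1 receptor gene passed in the difference on restimulation and 1 in that between tolerized and LPS 3h cells, against 0 in both.

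Without 1 culture the direction of 28 uncalled results turned. In WT the ranges were -0.16 to 2.54 for Olr1 at LPS 24h against Unstim. On restimulation they were -0.07 to 0.63 for Cd36, -0.39 to 0.23 for Scarb1, -0.03 to 1.56 for Clec7a and -0.06 to 0.60 for Fpr2. Against LPS 3h they were -0.51 to 0.19 for Cd36 and -0.19 to 0.29 for Clec4d after LPS 24h->LPS 3h, and -0.16 to 0.34 for Msr1 after LPS 24h. In Irg1-/- cells they were -0.31 to 0.93 for Clec7a at LPS 3h and -0.03 to 6.28 for Olr1 at LPS 24h against Unstim., where the highest is a fitted value against libraries at 0 and no bound, -0.20 to 0.09 for Marco and -0.04 to 0.42 for Clec7a on restimulation, and -0.00 to 0.30 for Clec4d after LPS 24h->LPS 3h against LPS 3h. Between genotypes in Unstim. they were -0.32 to 1.52 for Marco, -6.32 to 0.60 for Olr1, -0.81 to 0.30 for Clec7a, -3.13 to 1.25 for Fpr1 and -0.16 to 0.64 for Fpr2. After LPS 3h they were -0.49 to 0.34 for Marco, -0.21 to 0.19 for Cd36 and -0.21 to 0.35 for Fpr1. After LPS 24h they were -0.01 to 0.32 for Msr1, -2.04 to 0.09 for Olr1, -0.32 to 0.39 for Clec4e, -1.25 to 0.30 for Clec7a and -0.21 to 0.04 for Fpr1. After LPS 24h->LPS 3h they were -0.31 to 0.16 for Clec4d and -0.39 to 0.05 for Clec4e. Depth limits Olr1, Fpr1 and Marco in Unstim. cells, where libraries held 0 to 35 reads.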
